A study of Homo sapiens with 6 samples.

Results

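Caspases and their direct regulators were examined by RNA-seq in K562 cells depleted of lncRNA-IUR1. The genes are CASP2, CASP6, CASP8 and CASP9, which encode caspases, and APAF1, DIABLO, XIAP and BIRC2, which encode proteins that switch caspases on or hold them in check. They are 8 of the 12486 genes in the deposited table and were picked by name, by matching the Entrez identifiers of the table to official symbols, with earlier results of these data known. K562 is a human line from chronic myeloid leukemia, Bcr-Abl-positive and without functional p53. The control cells expressed an shRNA against luciferase (sh-luc) and the knockdown cells an shRNA against lncRNA-IUR1 (sh-IUR1), which the sample labels name lncRNA-up91. Both shRNAs were stably expressed from lentiviral vectors, a single shRNA stands for the knockdown, and no imatinib treatment is labelled. Each group has 3 libraries, of which 2 are numbered r1 and r2 and 1 is unnumbered. Depletion of lncRNA-IUR1 was not checked in these libraries, since its own level was not analysed here.

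Caspases are cysteine proteases made as inactive precursors that cut their substrates after aspartate. In the intrinsic pathway, cytochrome c released from mitochondria lets APAF1 assemble into the apoptosome, which recruits and activates caspase-9. In the extrinsic pathway, death receptors recruit FADD and caspase-8. Both routes converge on the executioner caspases, which cut PARP1, lamins and the inhibitor of the nuclease that fragments DNA. XIAP blocks caspases directly, cIAP1 (the product of BIRC2) acts mainly as a ubiquitin ligase in death receptor complexes, and DIABLO leaves mitochondria with cytochrome c and displaces these inhibitors. Imatinib kills Bcr-Abl-positive cells largely through the intrinsic route. The amount of mRNA says nothing about the cleavage state of a caspase, which is set after translation.

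None of the 8 genes passed the test between sh-IUR1 and sh-luc cells. The test was limma on log2(FPKM + 1), where FPKM is the fragment number scaled by transcript length and library size, with p-values adjusted over the 12276 genes that averaged 0.1 FPKM or more. All 8 members passed this filter. An adjusted p-value under 0.05 was reached by 0 of the 8 members and by 0 of all genes tested (0%). An unadjusted p-value under 0.05 was reached by 0 members and by 325 of the 12276 genes. A linear model without moderation put 344 of the 12276 genes under that unadjusted threshold, again with 0 members. With so few genes under it, 0 of 8 does not set the members apart. All 4 caspases had a log2 fold change below 0 (median -0.030) and all 4 regulators one above 0 (median 0.075), against a median of 0.019 over all genes tested, of which 58.0% were above 0. These signs are not stable for 4 of the 8 genes: CASP6, CASP8 and CASP9 change sign when single libraries are left out, and APAF1 also under median-ratio scaling (-0.0025) and quantile normalization (-0.026). The median absolute log2 fold change was 0.056 for the 8 members and 0.063 for all genes tested. The 95% intervals of the 8 changes lay between -0.24 and 0.36, which is between 0.848-fold and 1.29-fold on the FPKM + 1 scale. Changes on this scale understate those of genes with low FPKM. In bulk RNA, fewer cells that express a gene and less of its RNA per cell cannot be told apart.

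**Figure D1:**
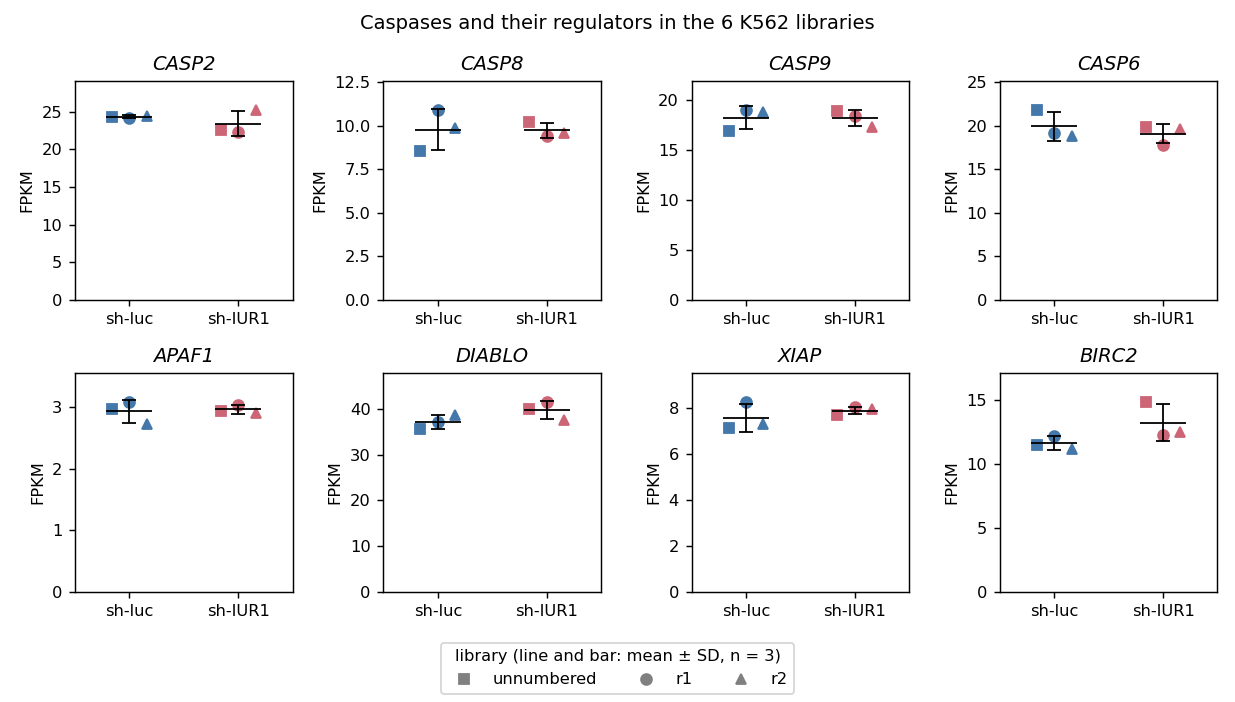
FPKM of the 8 genes in each library (y axis, FPKM, starting at 0; x axis, group). Squares are the unnumbered libraries, circles r1 and triangles r2, and the line with its bar is the mean ± SD (n = 3). BIRC2 is the single panel in which the groups do not overlap, and its sh-IUR1 libraries span 12.26 to 14.84 FPKM.

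BIRC2 showed the largest difference of the 8. This gene (identifier 329) encodes cIAP1 and lies on chromosome 11 of GRCh38 from 102347214 to 102378670 on the plus strand. In sh-luc cells its level was 11.47 FPKM in the unnumbered library, 12.19 in r1 and 11.12 in r2, and in sh-IUR1 cells, in the same order, 14.84, 12.26 and 12.45 FPKM. The groups did not overlap, with sh-IUR1 higher, but their nearest libraries were 0.07 FPKM apart and the unnumbered sh-IUR1 library stood well above the rest. The means were 11.6 ± 0.546 and 13.2 ± 1.44 FPKM (SD, n = 3 in each group), a ratio of 1.14. The log2 fold change was 0.17 (standard error 0.087, 95% interval -0.027 to 0.36), and limma gave an adjusted p of 0.930 (0.0843 unadjusted). A two-sided exact permutation test gave p = 0.1, the smallest value that 3 libraries against 3 allow. Without the unnumbered sh-IUR1 library the log2 fold change was 0.086 (adjusted p = 0.998), and without the unnumbered sh-luc library it was 0.16. Of the 8 members, 1 (12.5%) had groups that did not overlap, beside 7.07% of all genes tested, 4.04% with sh-IUR1 higher and 3.03% with sh-IUR1 lower. A single gene of 8 does not set the members apart from that background.

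The promoter of BIRC2 is shown because this gene differed most and because its start site carries a full cAMP response element, the site bound by CREB and ATF factors. The stretch below is from RefSeq (GRCh38.p14), chr11:102347115-102347214 on the plus strand, 100 bases that end with the annotated first base of the gene, and the capitals mark the element TGACGTCA.

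BIRC2: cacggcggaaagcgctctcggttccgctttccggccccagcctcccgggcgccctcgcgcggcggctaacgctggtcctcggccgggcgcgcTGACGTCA

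Among 35116 RefSeq promoter windows of 300 bases (250 before to 50 after a start site), 1.85% hold TGACGTCA, which reads the same on both strands. The 8 members have 18 such windows, some of which overlap. Both windows of BIRC2 hold the element, which is the same single site, while the 16 windows of the other members do not. Counted by gene, 1 of the 8 members has it, beside 2.25% of 27305 genes. The members have more windows per gene than all genes do, which gives them more chances of a match, so shares by gene are not a like comparison. A match describes the letters and is no evidence of binding.

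CASP8 encodes the initiator caspase of the death receptor pathway. It lies on chromosome 2 from 201233463 to 201287711 on the plus strand (identifier 841). Its level was 8.55, 10.92 and 9.85 FPKM in the sh-luc libraries, against 10.19, 9.38 and 9.58 FPKM with sh-IUR1 (here and for the genes that follow, in the order unnumbered, r1, r2). The sh-IUR1 values all fell inside the range of the sh-luc values, of which the unnumbered library was the lowest of the 6 and r1 the highest. The means were 9.77 ± 1.19 and 9.72 ± 0.422 FPKM (SD, n = 3 in each group), and the log2 fold change was -0.0024 (standard error 0.093, adjusted p = 0.996 from limma). With a 95% interval of -0.21 to 0.20, a change of either sign of that size is still compatible with these libraries. Without the unnumbered sh-luc library the log2 fold change was -0.086, and without sh-luc r1 it was 0.074. The canonical CASP8 transcript shares 207 exon bases with an overlapping lncRNA model on the same strand.

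A promoter stretch of CASP8 is shown because CASP8 is the only member with a match to the STAT letters, in a single one of its windows. These letters and those of GATA factors were of interest since STAT5 acts downstream of Bcr-Abl and K562 cells express GATA1. The stretch is RefSeq sequence of GRCh38.p14, chr2:201233224-201233283 on the plus strand, which begins 239 bases before the start site, and the capitals mark AGATAA (the GATA letters) and then a match to TTCNNNGAA (the STAT letters).

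CASP8: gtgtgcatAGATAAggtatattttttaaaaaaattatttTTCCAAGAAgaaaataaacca

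On either strand, TTCNNNGAA occurs in 7.66% of all windows and, among the members, in 1 of the 18 windows, the CASP8 window that holds the stretch above. AGATAA occurs in 10.3% of all windows and in 2 of the 18, 1 of CASP8 and 1 of XIAP. GGGCGG, the GC box bound by SP1, occurs in 45.0% of all windows and in 14 of the 18, where overlapping windows of BIRC2 and of XIAP share a site. Each of the 8 members has it in at least 1 window, beside 48.3% of 27305 genes, where again the members have more windows per gene. The 2 windows of CASP9 hold 8 and 9 matches. TATAAA occurs in 11.5% of all windows and in 1 of the 18 (a different window of CASP8). The median GC content was 68.2% for the members' windows and 58.7% for all windows. It was below that median in 3 of the member windows that hold a GC box, at 46.3% for CASP8, 48.0% for XIAP and 58.3% for DIABLO.

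CASP9 encodes the initiator caspase of the apoptosome and lies on the minus strand of chromosome 1, between 15491401 and 15524912 (identifier 842). It was expressed at 16.91, 19.09 and 18.85 FPKM in the sh-luc libraries, against 18.90, 18.45 and 17.34 FPKM with sh-IUR1. The groups overlapped fully, with the lowest and the highest value both among the sh-luc libraries. Means of 18.3 ± 1.20 and 18.2 ± 0.803 FPKM (SD, n = 3 in each group) gave a log2 fold change of -0.0029 (standard error 0.074, 95% interval -0.17 to 0.16, adjusted p = 0.995 from limma).

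CASP2, which encodes the caspase activated in the PIDDosome, lies on chromosome 7 from 143288351 to 143307696 on the plus strand (identifier 835). Its 3 sh-luc libraries were almost equal, at 24.38, 24.19 and 24.51 FPKM, while the sh-IUR1 libraries spread from 22.63 (unnumbered) and 22.29 (r1) to 25.31 FPKM (r2). Thus 2 sh-IUR1 libraries were below and 1 was above all control libraries. The means were 24.4 ± 0.161 and 23.4 ± 1.65 FPKM (SD, n = 3 in each group), with a log2 fold change of -0.057 (standard error 0.069, 95% interval -0.21 to 0.097, adjusted p = 0.931 from limma). Leaving out sh-IUR1 r2 gave -0.11 (adjusted p = 0.736) and leaving out sh-IUR1 r1 gave -0.024 (adjusted p = 0.999), so single libraries moved the value by more than 1.5 times.

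CASP6 encodes an executioner caspase that cuts lamin A. Its place is the minus strand of chromosome 4, between 109664388 and 109709767 (identifier 839). It was at 21.84, 19.09 and 18.81 FPKM in the sh-luc libraries, against 19.81, 17.79 and 19.55 FPKM with sh-IUR1. The unnumbered sh-luc library was the highest of the 6 and sh-IUR1 r1 the lowest. The log2 fold change was -0.059 (standard error 0.080, 95% interval -0.24 to 0.12, adjusted p = 0.936 from limma), and without the unnumbered sh-luc library it was 0.0058. CASP6 shares 92 exon bases with MCUB on the opposite strand, which was listed at a mean of 4.84 FPKM, and the strand setting of the counting is not given in the sources used here.

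Among the regulators, APAF1 (identifier 317), the scaffold of the apoptosome on chromosome 12 from 98645290 to 98735433 (plus strand), had the lowest level of the 8. It was listed at 2.97, 3.09 and 2.73 FPKM in the sh-luc libraries, against 2.94, 3.04 and 2.91 FPKM with sh-IUR1, which lay inside the range of the controls. The log2 fold change was 0.013 (standard error 0.079, 95% interval -0.16 to 0.19, adjusted p = 0.981 from limma). APAF1 shares 750 exon bases with ANKS1B on the opposite strand.

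DIABLO (identifier 56616), also known as SMAC, lies on the minus strand of chromosome 12, between 122207662 and 122227456, and was the most abundant of the 8. It was at 35.59, 37.02 and 38.67 FPKM in the sh-luc libraries, against 39.92, 41.56 and 37.62 FPKM with sh-IUR1. Of the sh-IUR1 libraries, the unnumbered one and r1 exceeded all controls, whereas r2 lay between sh-luc r1 and sh-luc r2. With means of 37.1 ± 1.54 and 39.7 ± 1.98 FPKM (SD, n = 3 in each group), the ratio was 1.07 and the log2 fold change 0.095 (standard error 0.065, 95% interval -0.050 to 0.24, adjusted p = 0.930 from limma). Its value is uncertain, because all 1471 bases of the canonical DIABLO transcript are shared with another protein-coding gene model on the same strand and 910 with B3GNT4 on the opposite strand (listed at a mean of 1.59 FPKM).

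XIAP (identifier 331) lies on chromosome X from 123859708 to 123913972 on the plus strand. It was expressed at 7.13, 8.26 and 7.28 FPKM in the sh-luc libraries, against 7.69, 8.01 and 7.92 FPKM with sh-IUR1. The highest and the lowest value were both found in sh-luc cells. The log2 fold change was 0.055 (standard error 0.081, 95% interval -0.13 to 0.23, adjusted p = 0.941 from limma). Leaving out sh-luc r1 gave 0.11, and leaving out the unnumbered sh-luc library gave 0.019. BIRC8, a retrotransposed relative of XIAP, could share reads with it.

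FPKM is scaled by transcript length, so levels can be set side by side between genes, but only roughly. The annotation is not given, so the length used for each gene is unknown. The level of DIABLO, and its ratio to XIAP below, also rest on bases shared with another gene model. The order of the means over the 6 libraries was DIABLO (38.4 FPKM), CASP2 (23.9), CASP6 (19.5), CASP9 (18.3), BIRC2 (12.4), CASP8 (9.75), XIAP (7.72) and APAF1 (2.95). CASP6 and CASP9 were not separated, since their ranges overlapped and CASP6 was higher in 3 of the 6 libraries. Every other pair of neighbours kept its order in 6 of 6 libraries without overlap of the ranges, in control and knockdown cells alike. The widest step was between XIAP and APAF1, at 2.62-fold. By level, DIABLO stood at the 80.9th and APAF1 at the 25.4th percentile of the genes in the table. The coefficient of variation over the 6 libraries had a median of 5.62% for the members and 8.46% for all genes tested. These medians were not matched for level, since the genes tested reach down to 0.1 FPKM and the lowest member averaged 2.95 FPKM. The table also lists no gene with an SD under 0.05 FPKM. Among the members the coefficient ran from 4.24% for APAF1 to 10.5% for BIRC2.

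Ratios within a library do not depend on its scaling. The ratio of DIABLO (the antagonist) to XIAP (the inhibitor) in the unnumbered, r1 and r2 libraries of sh-luc cells was 4.99, 4.48 and 5.31, against 5.19, 5.19 and 4.75 for sh-IUR1. All 3 knockdown values were within the range of the controls (difference of mean log2 ratios 0.036, two-sided exact permutation test, p = 0.7). CASP9 to XIAP was 2.37, 2.31 and 2.59 for sh-luc, against 2.46, 2.30 and 2.19 for sh-IUR1, a log2 difference of -0.065 (exact permutation test, p = 0.4). For APAF1 to CASP9 the values were 0.176, 0.162 and 0.145 for sh-luc, against 0.156, 0.165 and 0.168 for sh-IUR1, a log2 difference of 0.021 (exact permutation test, p = 0.8). These 3 tests were the whole family. In each, the means differed by less than the SD among the controls, and no p-value under 0.1 was possible.

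**Figure D2:**
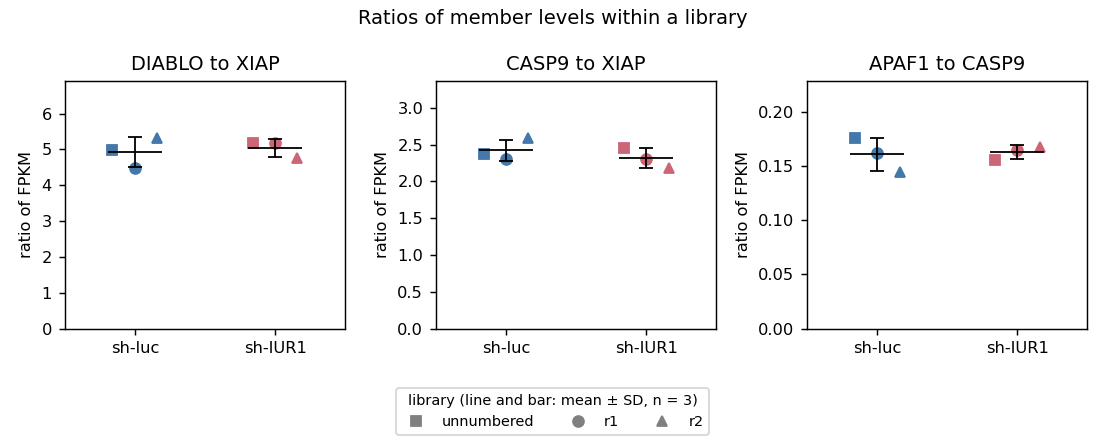
Ratio of FPKM of member pairs in each library (y axis, ratio, starting at 0; x axis, group), with the mean ± SD (n = 3). Symbols mark the unnumbered, r1 and r2 libraries. The groups overlap in all 3 panels.

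The unnumbered sh-luc library stood apart by its stress genes, and it touches several of these values. Genes of the integrated stress response, for which 9 genes such as DDIT3, TRIB3 and DDIT4 were taken, had a mean log2(FPKM + 1) of 6.06 in the unnumbered sh-luc library, 7.24 and 7.05 in sh-luc r1 and r2, and 6.90 to 7.42 in the sh-IUR1 libraries. All 9 had a log2 fold change above 0 (median 0.48) and 0 of the 9 passed the test, with summed levels of 836.8 to 1746 FPKM in sh-luc and 1436 to 1903 FPKM in sh-IUR1 libraries. CASP8, CASP9, XIAP and DIABLO were at their lowest in the unnumbered sh-luc library and CASP6 at its highest, so 5 of the 8 (62.5%) had an extreme there. The same was true of 62.0% of all genes tested. The sh-IUR1 r1 library came next and held the lowest or highest value of 48.4% of all genes tested. Each other library did so for 19.1% to 25.9%. Of the 8 members, 3 (37.5%) had an extreme in sh-IUR1 r1. Of the 47 further pathway genes described below, 57.4% had one there, beside 55.3% in the unnumbered sh-luc library. In sh-luc r1, 4 of the 8 (CASP8, CASP9, APAF1 and XIAP, 50%) were at their highest, beside 12.6% of all genes tested. The part of the stress state of the unnumbered sh-luc library in these values was not tested. Erythroid genes that mark K562 cells were strongly expressed, with 9 of 9 listed genes measured and summed levels of 5189 to 6686 FPKM in sh-luc and 5096 to 5658 FPKM in sh-IUR1 libraries. Of 12 markers of other blood cells and stroma, 8 were in the table, with sums of 151.4 to 173 and 159.2 to 160.6 FPKM, most of it LYZ (106.96 to 118.74 FPKM) and EPCAM (37.94 to 47.60 FPKM). CD3E, CD3G, CD79A and COL1A1 averaged under 1 FPKM, and 0 of the 6 tested passed.

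**Figure D3:**
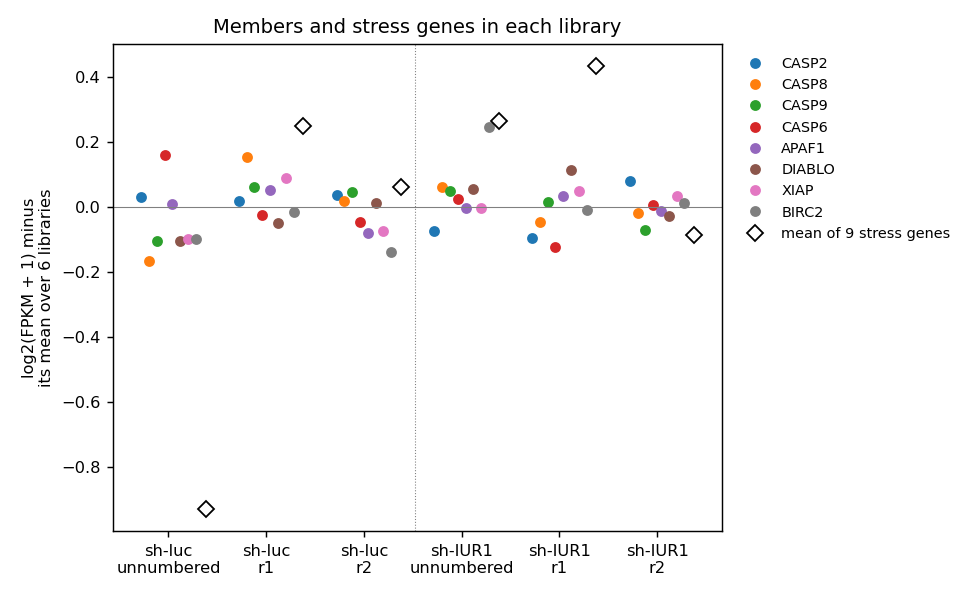
Log2(FPKM + 1) of each member minus its mean over the 6 libraries (y axis) by library (x axis), with the mean of the 9 stress genes as open diamonds and a dotted line between the groups. The stress genes are far below 0 in the unnumbered sh-luc library, while the members lie closer to 0 in that library.

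Of the 54 further genes of the pathway, grouped by role, 47 were in the table and were tested. Of these 47, 0 passed the adjusted threshold and 0 had an unadjusted p-value under 0.05 in limma. Over all genes tested, 325 of 12276 had such an unadjusted p-value. The log2 fold changes of the 47 were above 0 for 21 and below 0 for 26, with a median of -0.016, between -0.14 and 0.21. Groups did not overlap for 2 of the 47, CRADD (higher) and LMNB1 (lower), beside 7.07% of all genes tested, so that such genes were no more frequent here than in the whole table.

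**Figure D4:**
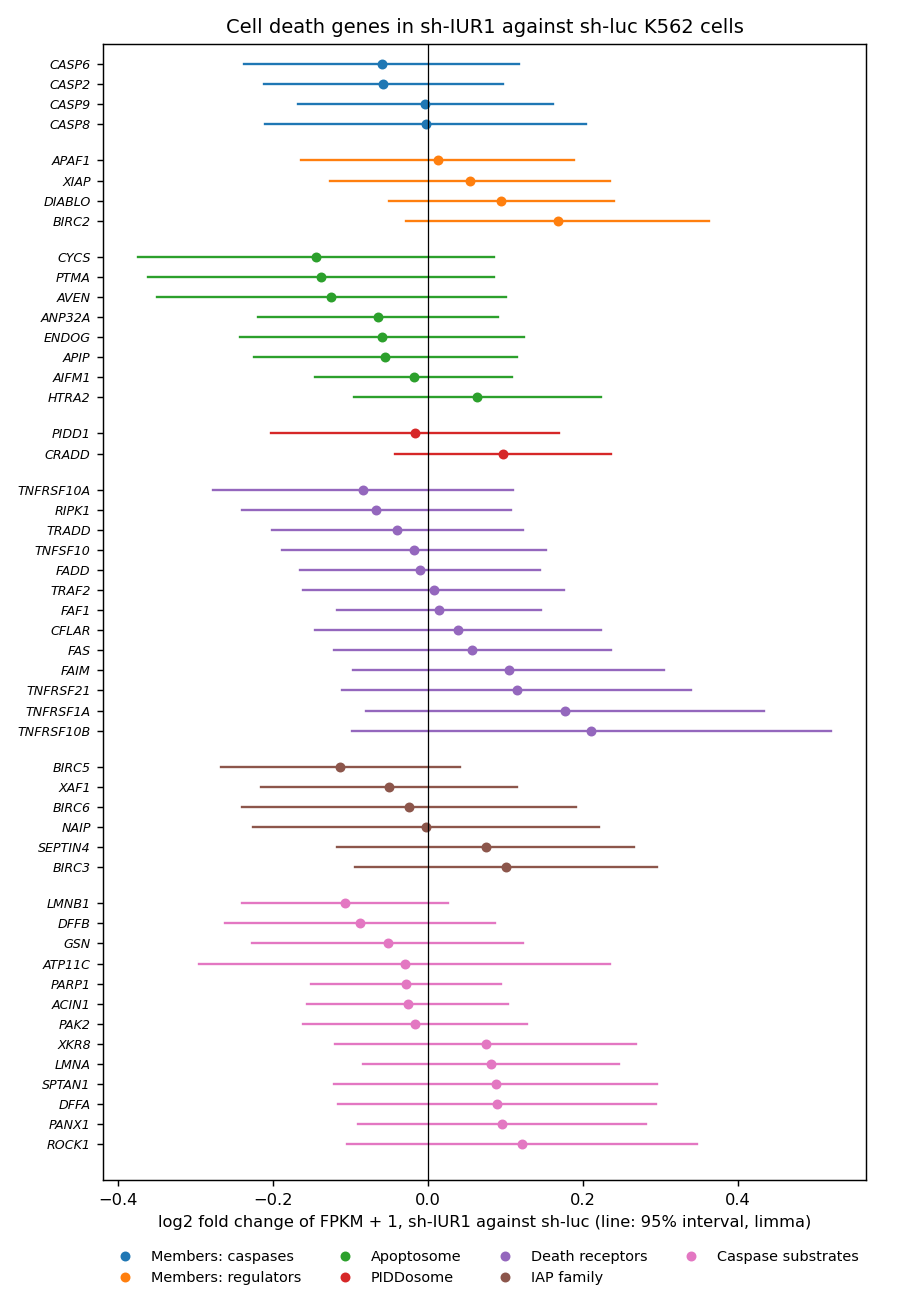
Log2 fold change of FPKM + 1 in sh-IUR1 against sh-luc cells (x axis) for each member and each tested pathway gene other than the further caspases (y axis), coloured by list, with 95% intervals from limma as lines. All intervals include 0.

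Of the other caspases, CASP10, the paralog of CASP8, was at 5.68, 8.04 and 6.46 FPKM in the sh-luc libraries, against 7.25, 6.46 and 6.94 FPKM with sh-IUR1. Its lowest and its highest value were both among the controls (log2 fold change 0.039, standard error 0.11, adjusted p = 0.963 from limma), and without the unnumbered sh-luc library the log2 fold change was -0.060. CASP4, an inflammatory caspase, ranged from 1.38 to 2.49 FPKM, with a log2 fold change of -0.078, and its extremes were both among the sh-IUR1 libraries.

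Of 8 genes of the apoptosome and of mitochondrial release, which include inhibitors and caspase-independent factors such as AIFM1, 7 had a log2 fold change below 0, beside 58.0% of all genes tested above 0. Their median was -0.062, and with single libraries left out it lay between -0.11 and -0.030. CYCS, which encodes cytochrome c, was at 88.50, 69.38 and 70.60 FPKM in the sh-luc libraries, against 70.96, 61.00 and 73.94 FPKM with sh-IUR1. Its log2 fold change was -0.14 (adjusted p = 0.930 from limma) and -0.033 without the unnumbered sh-luc library, which was the highest of the 6. PTMA, whose product restrains apoptosome assembly, had similar values, with -0.14 and then -0.028, and ANP32A, whose product promotes it, had -0.064 and then -9.78e-05. In the PIDDosome, CRADD, the adaptor that binds caspase-2, was at 21.35, 20.91 and 21.07 FPKM in the sh-luc libraries, against 23.33, 21.86 and 22.76 FPKM with sh-IUR1. All knockdown libraries were above the controls (log2 fold change 0.097, standard error 0.062, unadjusted p = 0.152 and adjusted p = 0.930 from limma). PIDD1, the platform of that complex, overlapped between groups with -0.017 (-0.040 without the unnumbered sh-luc library).

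Of 17 death receptor genes 13 were tested, 8 with a log2 fold change above 0 and 5 below (median 0.014). TNFRSF10B, which encodes a TRAIL receptor and is a known target of the stress factor CHOP, was at 5.71, 8.72 and 7.66 FPKM in the sh-luc libraries, against 8.36, 9.89 and 7.60 FPKM with sh-IUR1. It had the largest change of the pathway genes, 0.21 (standard error 0.14, adjusted p = 0.930 from limma), which was 0.061 without the unnumbered sh-luc library. Its level was lowest in that library, as was that of 38% of all genes tested. A link to the stress genes was not tested. TNFRSF1A, the TNF receptor, showed the same pattern, with 0.18 and then 0.032. CFLAR, which encodes the caspase-8 inhibitor FLIP, had a mean of 29.1 FPKM over the 6 libraries, above the 9.75 FPKM of CASP8, and a log2 fold change of 0.039. FAF1, a FAS-associated factor, had 0.014. Both changed sign without the unnumbered sh-luc library, to -0.035 and -0.014.

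The remaining inhibitors and the substrates overlapped as well, with the exception of LMNB1. BIRC5, which encodes survivin, was at 69.03, 62.57 and 67.07 FPKM in the sh-luc libraries, against 59.48, 58.07 and 66.13 FPKM with sh-IUR1 (log2 fold change -0.11, standard error 0.069, adjusted p = 0.930 from limma). BIRC6 had -0.024, which turned to 0.011 without the unnumbered sh-luc library, and BIRC3, the neighbour and paralog of BIRC2, was listed at only 0.19 to 0.44 FPKM. PARP1, the substrate whose cleavage marks apoptosis, was at 120.04, 120.76 and 129.22 FPKM in the sh-luc libraries, against 122.03, 120.27 and 120.32 FPKM with sh-IUR1 (log2 fold change -0.028, adjusted p = 0.954 from limma, and -0.047 without the unnumbered sh-luc library). LMNB1, a lamin cut during apoptosis, was lower in every sh-IUR1 library, with 84.76, 79.03 and 80.80 FPKM in the sh-luc libraries, against 75.93, 72.26 and 78.88 FPKM with sh-IUR1 (log2 fold change -0.11, standard error 0.059, unadjusted p = 0.105 and adjusted p = 0.930). The difference was 0.082 for LMNA, the substrate of caspase-6, and 0.12 for ROCK1, a kinase activated by caspase cleavage. Without the unnumbered sh-luc library it was 0.038 for LMNA and 0.21 for ROCK1. The ROCK1 groups then did not overlap, and those of AIFM1, TRADD and PAK2 also came apart, with sh-IUR1 lower. Groups come apart more easily with a library removed, and the share of all genes that did so was not counted.

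The profile over the 6 libraries was also compared between each member and 47 others, the remaining members and the pathway genes that averaged 1 FPKM or more. The closest were CASP10 for CASP8 (Pearson's r = 0.953), RIPK1 for CASP2 (0.956), ANP32A for CASP6 (0.975), PAK2 for CASP9 (0.966) and TNFRSF21 for DIABLO (0.967). They were XKR8 for XIAP (0.916), CRADD for BIRC2 (0.832) and XIAP for APAF1 (0.643). Each r rests on 6 points that share their libraries, and the highest of 47 is large by construction.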

How the data were processed

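RNA-seq of 6 K562 libraries (3 sh-luc, 3 sh-IUR1) was analysed. The authors trimmed and masked the reads, mapped them to hg38 and calculated RPKM with SAMtools 0.1.19. The aligner, annotation and strand setting are not given in the sources used here. The deposited values are FPKM with 2 decimals. The deposited table also holds a score per gene and library (the z-score of FPKM), a cluster number and a cluster membership fraction, none of which was used. It lists 12486 genes, 0 of them with an SD under 0.05 FPKM over the libraries. RefSeq gave a symbol for 12363.

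The values were fitted as log2(FPKM + 1) with limma 3.58.1 in R 4.3.3 (eBayes with a trend, group as the only term), for genes averaging 0.1 FPKM or more, and p-values were adjusted after Benjamini and Hochberg. Since FPKM are not counts, no count model was run. Of 112 low values of single-exon genes, 36.6% came out whole within 0.1 fragments at the best depth (20% by chance), so depth is unknown. The labels do not say that libraries are separate cultures, although the methods name independent groups; p-values measure the spread between these libraries. Ratios were compared by two-sided exact permutation tests (scipy 1.17.1). The fit was first tested on simulated data. Figures used matplotlib 3.10.9.

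Members and lists were chosen with earlier results of these data known, and the motifs after the values were seen. Named pathway genes are those the study assayed as protein and, per list, the 2 with the highest mean and the 2 with the smallest p among genes of at least 1 FPKM; BIRC3 was added after its values were seen, and some genes that the rule names are not reported here. As alternatives, the pseudocount was set to 0.1, the filter was dropped or raised to 1 FPKM, libraries were scaled by median ratios or quantiles, and the trend or the moderation of eBayes was removed. A replicate block was added and each library was left out in turn.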

Additional observations from a re-analysis of the deposited data

How the results depend on the processing

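The count of genes, of members and of pathway genes with an adjusted p-value under 0.05 was 0 in every alternative fitted with adjustment. Without moderation or adjustment, a linear model per gene called 344 of 12276 genes, none of them a member and 1 a pathway gene, CRADD. Leaving out each library in turn gave 0 called genes throughout, and 158 to 856 at an unadjusted p-value under 0.05. Of 112 member values under alternatives, 100 kept their direction and side of the threshold and 12 changed sign. The filter, trend, moderation and block settings cannot change a log2 fold change here, so many of the 100 kept their direction by construction. The cause of the sign changes was not tested. APAF1 had a log2 fold change of -0.0025 with median-ratio scaling and -0.026 with quantile normalization. With one library left out the range was -0.024 to 0.042 for APAF1, -0.097 to 0.0058 for CASP6, -0.086 to 0.074 for CASP8 and -0.055 to 0.031 for CASP9. BIRC2 (0.086 to 0.21), DIABLO (0.062 to 0.13), XIAP (0.019 to 0.11) and CASP2 (-0.11 to -0.024) kept their sign. The log2 ratio difference ranged from -0.031 to 0.091 for DIABLO to XIAP, from -0.11 to -0.017 for CASP9 to XIAP and from -0.052 to 0.087 for APAF1 to CASP9. Whether the numbers r1 and r2 mark matched libraries could not be decided. Between the groups, deviations from the group mean correlated at 0.385 in r1, at -0.34 in r2 and at 0.044 in the unnumbered libraries. Such deviations sum to 0 within a group, so these values depend on each other and cannot exclude matching. The replicate block treated the unnumbered libraries as a further matched pair, which the labels do not state. With it, 0 genes were called and 533 had an unadjusted p-value under 0.05, beside 325 without it. BIRC2 had an adjusted p of 0.947 from limma, and its log2 fold change of 0.17 cannot change with this block. The fragments behind each FPKM are unknown, which limits APAF1 and the genes under 1 FPKM most.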
